A study of Mus musculus with 7 samples.

Results

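The genes of potassium channels were followed through RNA-seq of whole mouse kidneys at embryonic stage E15.5. They were chosen by name: every gene whose symbol starts with Kcn, further letters and a number. That gave 64 of the 16167 genes listed, in 19 families, of which 62 encode channel or auxiliary subunits and 2, Kcnq1ot1 and Kcnmb4os2, are non-coding RNAs named after a channel gene. The 4 mutant libraries were labelled Six2-Cre; Irx3/5(loxP/loxP): both copies of the floxed Irx3 and Irx5 locus, which encodes a pair of Iroquois homeobox transcription factors, together with a Cre recombinase active in nephron progenitors and thereby in the nephron cells that come from them. The 3 control libraries were labelled Irx3/5(loxP/+), with 1 floxed copy and no Cre named. The controls were littermates, and their genotype field reads WT. Since no Cre is named for them, deletion and Cre transgene cannot be told apart, and the number of embryos in a library is not given. Values are FPKM, fragments scaled for gene length and library depth, so levels can be compared between genes. A fold change is the mutant mean less the control mean of log2(FPKM + 1), and the added 1 shrinks the changes of low genes.

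Potassium channels let potassium leave or enter a cell down its gradient and set the voltage across the membrane. In the kidney tubule the sodium-potassium ATPase brings potassium in across the basolateral membrane. Basolateral channels return it to the blood side, which keeps the pump and the membrane voltage going, while apical channels recycle it into the lumen of the thick ascending limb or secrete it in the collecting duct. In vessels and mesenchyme, other channels set the tone and excitability of contractile cells.

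Irx3 RNA was at 6.63, 3.98, 5.57 and 6.75 FPKM in the mutants and at 14.7, 14.2 and 12.7 FPKM in the controls, and it fell (log2 fold change -1.16, SE 0.15; limma adjusted p = 0.0145). Irx5 RNA was at 0.895 to 2.05 FPKM in the mutants and 1.36 to 1.59 FPKM in the controls and did not pass (limma adjusted p = 0.989); counts over a whole gene can include parts outside a deletion. Libraries held 40511920 to 69028943 reads in the listed genes. Defining markers of the tissue's cell types (proximal tubule, loop of Henle, podocyte, ureteric tree, nephron progenitor, endothelium, stroma) were above 0 in all libraries. Among 9 loop markers, 3 fell and none rose (6 did not pass), and all 9 lay below 0; their summed FPKM ran from 28.3 to 52.8 in mutants and from 68.1 to 80.5 in controls. Among 11 tested proximal tubule markers, 2 fell and none rose (9 did not pass), all 11 below 0, with sums over the 12 listed of 63.6 to 134 FPKM in mutants and 169 to 199 FPKM in controls. These calls are limma's. In the authors' deposited DESeq2 test all loop markers but Cldn10 and Cldn19 passed as lower at an adjusted p under 0.05. So did all listed proximal tubule markers but Slc34a1, Slc5a2 and Aqp1. Of all genes with a deposited p, 3.74% passed as lower. In RNA of a whole kidney, fewer cells of a type and less RNA per cell cannot be told apart. Mutant replicate 3 stood lowest in both sums, and there embryonic Hbb-y, a globin that is replaced as the embryo ages, was at 10.5% of adult Hbb-bs, against 1.38% to 2.24% in the other mutants and 1.34% to 3.45% in the controls.

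Most potassium channel genes had low levels. The 5 highest were Kcnk1, Kcnj16, Kcnj8, Kcnk5 and Kcne1l. They were also the only members with a mean of at least 5 FPKM, and they held 43.6% of the summed mean FPKM of all 64. At the other end, 25 members had a mean under 0.5 FPKM. Each member had at least 10 reads in every library. Summed over all 64, the level was 103, 108, 102 and 104 FPKM in the mutants and 115, 113 and 111 FPKM in the controls. The sums did not overlap. Without the 10 inward rectifiers the sums were 75.2 to 78.8 FPKM in the mutants and 75.0 to 78.6 FPKM in the controls, and these overlapped. The class left out was itself lower in sum in these same mutants, so this overlap is not a separate result.

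**Figure D1:**
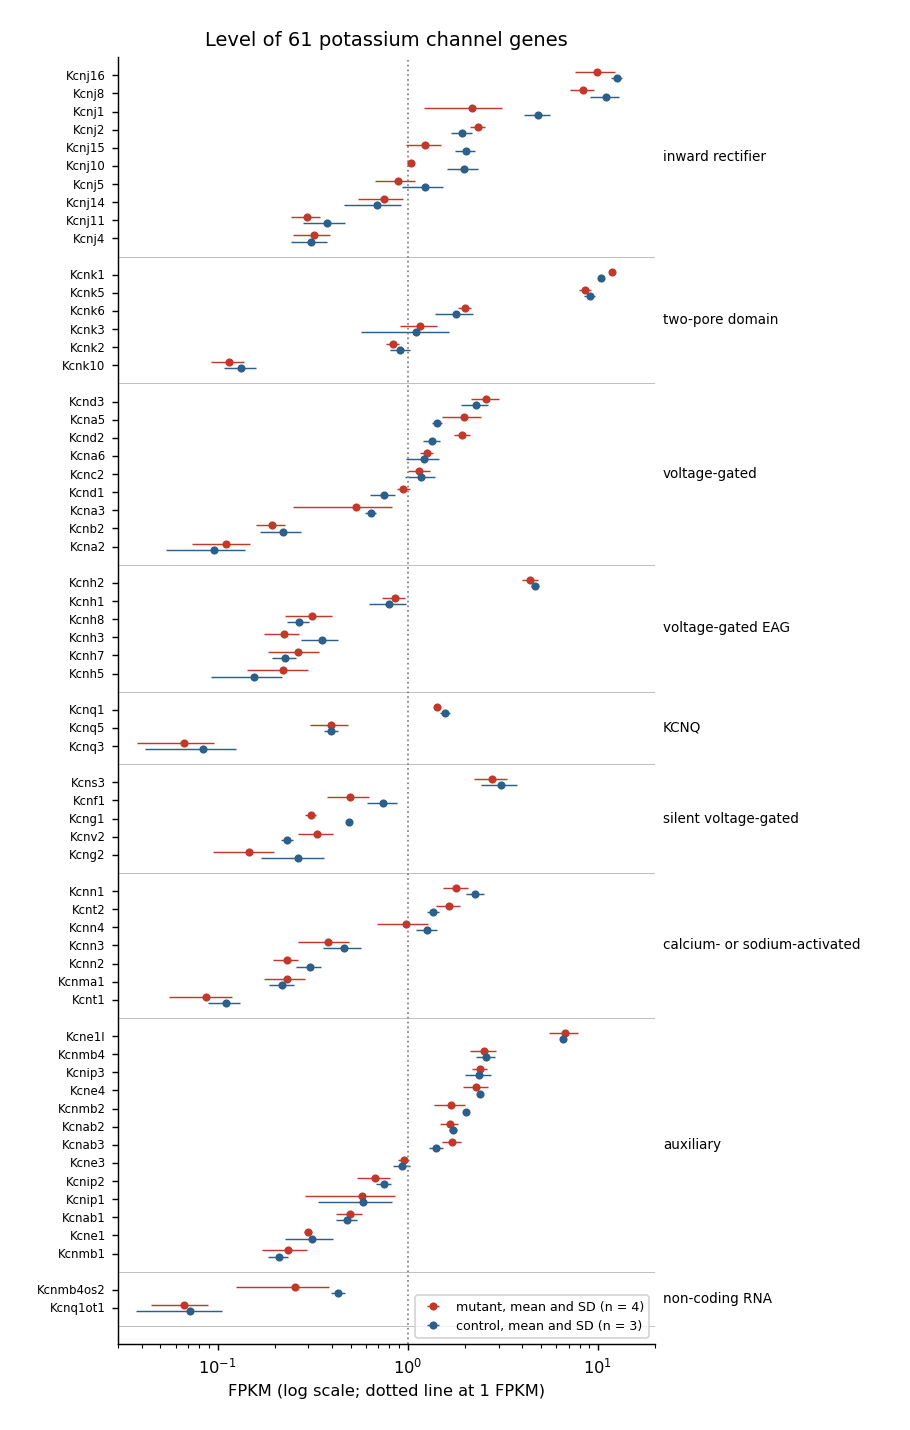
Mean FPKM with SD of 61 of the 64 potassium channel genes on a log axis, grouped by class, mutants (red, n = 4) above controls (blue, n = 3). The levels span 0.0664 FPKM (Kcnq1ot1, mutants) to 12.6 FPKM (Kcnj16, controls), and the widest gaps at levels above 1 FPKM are those of Kcnj1 and Kcnj10.

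Of the 64 genes, 1 fell and 0 rose. The test was limma on the 13466 genes with at least 1 FPKM in at least 3 libraries, with Benjamini-Hochberg adjustment over all of them. It covered 30 members, none of which reached the filter through 1 group alone, and left out 34. The one that fell was Kcnj10, so 3.33% of the tested members were called, against 1.53% of all genes tested (0.475% higher and 1.05% lower in mutants). At an unadjusted p under 0.05 the count was 8. The share of all genes tested at that threshold is not given, so counts at an unadjusted p, here and below, cannot be read as many or few. The median fold change of the 30 was -0.04, beside -0.0020 over all genes tested, with 17 below 0 and 13 above. In the authors' deposited table, made with DESeq2 on counts, 5 of the 64 passed an adjusted p of 0.05: Kcnj10, Kcnj15, Kcnj1 and Kcng1 lower and Kcnd2 higher. That is 7.81% of the members, against 5.49% of all genes with a deposited p (1.75% higher and 3.74% lower in mutants). On reads recovered from the table, limma-voom without the filter called 2 of the 64, Kcnj10 and Kcnj15, both lower, against 1.79% of all listed genes (0.464% higher and 1.33% lower in mutants). Leaving out any 1 library took that count to 0 or 1 of the 64, an alternative chosen after seeing the data.

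The mutants all lay on one side of the controls for 11 of the 64 members (17.2%), 7 below and 4 above, where the share over all listed genes was 14.6% (8.65% below and 5.91% above). Those below included Kcnj10, Kcnj15, Kcnj1, Kcng1, Kcnh3 and Kcnn2. Those above were Kcnd2, Kcnd1, Kcna5 and Kcnk1.

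**Figure D2:**
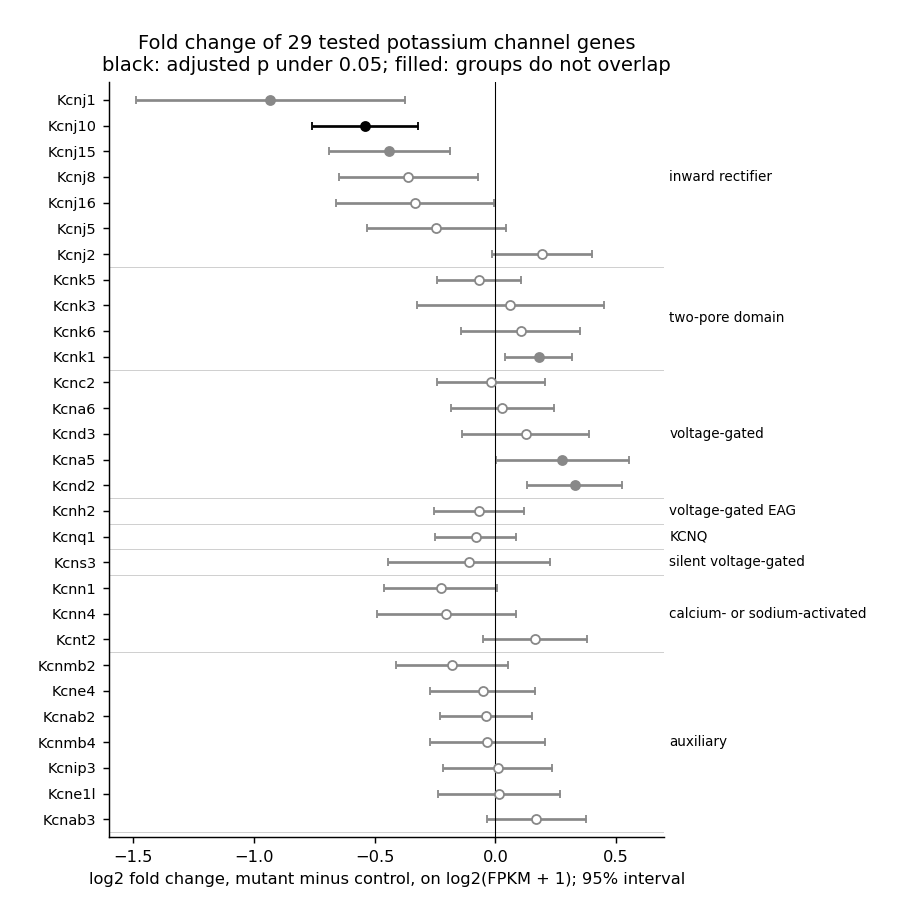
Log2 fold change (mutant minus control, on log2(FPKM + 1)) with its 95% interval for 29 of the 30 tested potassium channel genes, by class. Kcnj10 (black) is the one with an adjusted p under 0.05; filled points are genes whose groups do not overlap, and 6 of the 7 inward rectifiers lie below 0.

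The inward rectifiers, encoded by Kcnj genes, pass potassium more easily into the cell than out and hold the resting voltage. Among the 7 tested, 1 fell and none rose, and 6 did not pass. The median fold change was -0.36, and 6 of the 7 lay below 0. Their summed level over all 10 was 26.3, 33.1, 23.3 and 26.5 FPKM in the mutants and 36.8, 37.8 and 36.4 FPKM in the controls. Every mutant sum was below every control sum. The sums rest mostly on Kcnj16 and Kcnj8, the highest members of the family. For each of these the groups overlapped and the difference did not pass (limma adjusted p = 0.353 for Kcnj16 and 0.237 for Kcnj8). Groups were apart for Kcnj10, Kcnj15 and Kcnj1 only, so the separation of the sums does not describe each member.

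Kcnj10 (ENSMUSG00000044708.6) encodes Kir4.1, a basolateral channel of the distal nephron that is also known from glia. It was at 1.02, 0.972, 1.06 and 1.08 FPKM in the mutants and at 2.37, 1.88 and 1.65 FPKM in the controls. The 4 mutants lay within a narrow band below all controls, and the controls were spread more widely, with replicate 1 highest. Control replicate 1 also stood out in the sum of 3 listed skeletal muscle markers, at 50.9 FPKM. That sum was 8.33 and 8.02 FPKM in control replicates 2 and 3 and 7.07 to 9.61 FPKM in the mutants. Whether this bears on the Kcnj10 value of that library was not tested. The mutant mean was 52.5% of the control mean, a difference of -0.54 on the log2 scale (SE 0.097; limma adjusted p = 0.0398). Of 6 distal and connecting tubule markers listed, Calb1 rose and none fell among 4 tested in limma, and 4 of the 6 lay below 0 in limma-voom. Their summed level was 117 ± 8.74 FPKM in the mutants and 88.9 ± 5.88 FPKM in the controls (SD, n = 4 and 3), and without Calb1, a sum added after seeing the data, it was 40.1 to 48.4 FPKM in the mutants and 41.7 to 51.6 FPKM in the controls, which overlapped. Slc12a3 and Tfap2b of this list had all mutants below all controls, and Calb1 and Gata3 all mutants above. The authors' deposited DESeq2 test called Slc12a3 and Tfap2b lower (adjusted p = 1.1e-07 and 0.00156). It called Calb1 and Gata3 higher (adjusted p = 8.26e-06 and 0.0150), and Wnk1 and Trpm6 did not pass. The sums rest mostly on Calb1, Gata3 and Wnk1, with control means of 43.1, 18.2 and 17.3 FPKM. Slc12a3 averaged 0.191 FPKM in mutants and 1.22 FPKM in controls, so neither sum describes it. Of 9 neuron and glia markers 4 were listed, all below 0 in limma-voom, and of 2 tested Elavl4 fell (limma adjusted p = 0.0296); the sums were 4.28 to 9.07 FPKM in the mutants and 5.62 to 11.4 FPKM in the controls. The part of either list in the Kcnj10 difference was not tested. The gene rested on 246 to 897 reads a library, and its limma-voom fold change was -0.94 (SE 0.145, adjusted p = 0.0184). The authors' deposited DESeq2 test gave -0.93 (adjusted p = 9.09e-07). The limma call on log2(FPKM + 1) is close to the threshold. It was lost on leaving out any 1 library except mutant replicate 1, and with the replicate number as a block (limma adjusted p = 0.182). Over the 7 omissions the limma adjusted p ran from 0.0386 to 0.199 and the fold change from -0.62 to -0.44.

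Kcnj16 (ENSMUSG00000051497.16) encodes Kir5.1, which joins Kir4.1 or Kir4.2 in mixed channels of the basolateral membrane. It was at 9.55, 13.2, 7.84 and 9.09 FPKM in the mutants and at 12.7, 13.3 and 11.7 FPKM in the controls. Mutant replicate 2 lay among the controls and the other mutants below them, and the difference did not pass (log2 fold change -0.33, SE 0.14; limma adjusted p = 0.353). Within a library, Kcnj10 stood at 0.107, 0.0736, 0.135 and 0.119 of the Kcnj16 level in the mutants and at 0.187, 0.142 and 0.141 in the controls. The ratio was thus lower in each mutant than in any control, with an exact permutation p of 0.0571 (two-sided, 4 against 3 libraries) and 0.143 after adjustment over the 5 ratios examined; the smallest p this design allows is 0.0286. The 5 ratios were chosen after the values were seen.

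Kcnj15 (ENSMUSG00000062609.15) encodes Kir4.2, a basolateral channel known from the proximal tubule. It was at 0.994, 1.56, 1.06 and 1.31 FPKM in the mutants and at 2.04, 2.25 and 1.76 FPKM in the controls, so the groups did not overlap. The log2 fold change was -0.44 (SE 0.11, 95% interval -0.69 to -0.19), short of the threshold in limma (adjusted p = 0.0945) and past it in limma-voom on all listed genes (log2 fold change -0.75, SE 0.16; adjusted p = 0.0489) and in the authors' deposited table (log2 fold change -0.71, adjusted p = 0.00369). Its level in mutants was 61.0% of that in controls. The ratio of Kcnj15 to Kcnj16 averaged 0.125 ± 0.018 in mutants and 0.160 ± 0.0093 in controls (SD, n = 4 and 3; exact permutation p = 0.0571, 0.143 adjusted over the 5 ratios). The proximal tubule markers were also lower in the mutants, with the sums given above, and their part in the Kcnj15 difference was not tested.

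Kcnj1 (ENSMUSG00000041248.10) encodes ROMK, the apical channel that recycles potassium in the thick ascending limb and secretes it in the collecting duct. It was at 2.95, 2.97, 0.997 and 1.77 FPKM in the mutants and at 4.94, 5.59 and 4.06 FPKM in the controls. All mutants were below all controls, and the mutants were themselves spread widely, with replicate 3 lowest. The log2 fold change was -0.93 (SE 0.24), further from 0 than that of Kcnj10 but with a wider 95% interval, -1.49 to -0.38, and it did not pass (limma adjusted p = 0.113). In the authors' deposited table the log2 fold change was -1.16 (adjusted p = 0.00569). With the ratio of embryonic to adult globin as a covariate the limma fold change was -0.77 (adjusted p = 0.0196). That ratio is set apart mainly by mutant replicate 3, at 10.5% against 1.34% to 3.45% in the other libraries, which was also lowest in Kcnj1. The share of all genes called with the covariate is not given here. The loop markers were lower in the mutants too, with the sums given above, and their part in the Kcnj1 difference was not tested.

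Like Kcnj1, Slc12a1 and Bsnd of the thick limb's salt transport were lowest in mutant replicate 3. Slc12a1, the apical sodium-potassium-chloride cotransporter to which ROMK returns potassium, was at 11.9, 7.86, 3.33 and 7.48 FPKM in the mutants and at 23.3, 20.1 and 17.9 FPKM in the controls (log2 fold change -1.40, SE 0.34; limma adjusted p = 0.111). It passed in the deposited DESeq2 test (log2 fold change -1.42, adjusted p = 0.0238). Bsnd, the subunit barttin of the basolateral chloride channels, was at 2.12, 1.40, 0.630 and 1.04 FPKM in the mutants and at 3.66, 4.08 and 3.74 FPKM in the controls, and it fell (log2 fold change -1.11, SE 0.19; limma adjusted p = 0.0380). Relative to Slc12a1, Kcnj1 stood at 0.248, 0.378, 0.299 and 0.237 in the mutants and at 0.212, 0.279 and 0.227 in the controls. These ratios overlapped (exact permutation p = 0.286, 0.357 adjusted over the 5 ratios).

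**Figure D3:**
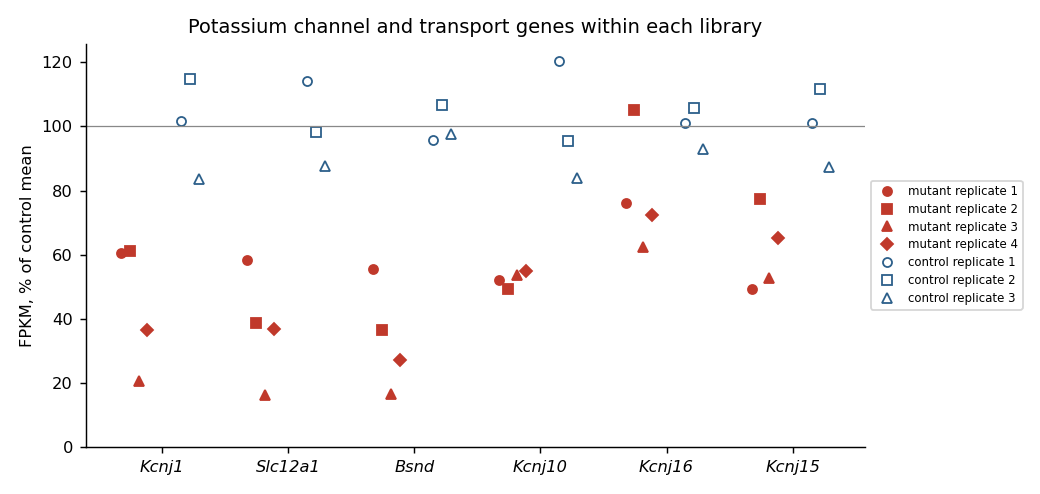
FPKM of 4 inward rectifier genes and of the transport genes Slc12a1 and Bsnd in each library, as a percent of the control mean; filled red symbols are mutants and open blue symbols controls. Kcnj1, Slc12a1 and Bsnd are lowest in mutant replicate 3 (16.3% to 20.5%), while Kcnj10 lies at 49.4% to 54.9% in all 4 mutants.

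The sequence ahead of the annotated start is shown for these 4 tubule channels because they are the inward rectifiers described above from the nephron tubule. RefSeq windows on GRCm38.p6, which is not the build of the deposited table, were cut to the 250 bases before each start; 45 of the 64 members had a RefSeq window. They were searched on both strands for ACANNTGT (a site type bound by Iroquois factors), GTTAAT (a half-site of HNF1 factors), TNAAGGTCA (a site type of estrogen-related receptors) and TATAAA. Matches are in capitals, and no match overlapped another. Kcnj10 (chr1:172340960-172341209, plus strand), Kcnj15 (chr16:95257308-95257557, plus strand) and Kcnj1 (chr9:32393735-32393984, plus strand) held none of the 4 motifs. Of 4 Kcnj16 windows the 2 with a match are given, chr11:110967783-110968032 and chr11:111019335-111019584, both on the plus strand.
Kcnj10: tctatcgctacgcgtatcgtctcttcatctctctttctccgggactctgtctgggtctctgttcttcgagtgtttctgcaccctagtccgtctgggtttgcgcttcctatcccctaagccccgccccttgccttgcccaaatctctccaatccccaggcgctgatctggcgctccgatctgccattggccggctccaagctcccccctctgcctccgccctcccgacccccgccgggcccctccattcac
Kcnj15: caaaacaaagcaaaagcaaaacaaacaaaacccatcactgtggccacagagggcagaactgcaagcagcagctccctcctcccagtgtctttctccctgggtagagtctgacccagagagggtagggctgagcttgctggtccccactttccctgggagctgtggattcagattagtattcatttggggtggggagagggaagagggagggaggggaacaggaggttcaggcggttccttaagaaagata
Kcnj1: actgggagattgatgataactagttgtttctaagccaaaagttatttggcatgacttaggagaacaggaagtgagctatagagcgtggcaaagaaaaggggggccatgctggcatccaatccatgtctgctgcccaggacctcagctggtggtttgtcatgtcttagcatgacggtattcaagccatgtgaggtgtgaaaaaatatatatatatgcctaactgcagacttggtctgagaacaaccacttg
Kcnj16, first window: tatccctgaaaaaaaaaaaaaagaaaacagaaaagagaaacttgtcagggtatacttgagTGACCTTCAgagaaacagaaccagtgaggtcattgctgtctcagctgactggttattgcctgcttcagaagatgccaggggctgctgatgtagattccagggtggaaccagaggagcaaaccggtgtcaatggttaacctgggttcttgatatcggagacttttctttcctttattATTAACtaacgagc
Kcnj16, other window: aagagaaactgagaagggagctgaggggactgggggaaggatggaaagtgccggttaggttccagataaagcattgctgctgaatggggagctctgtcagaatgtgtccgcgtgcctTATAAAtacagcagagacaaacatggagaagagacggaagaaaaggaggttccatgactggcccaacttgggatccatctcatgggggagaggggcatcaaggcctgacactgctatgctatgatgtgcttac
The first Kcnj16 window held TNAAGGTCA and GTTAAT, each on the minus strand, and the other held TATAAA. Over all 32851 windows of this length, ACANNTGT was in 6.31%, GTTAAT in 6.43%, TNAAGGTCA in 1.14% and TATAAA in 12.4%, and over the 67 windows of potassium channel genes in 1.49%, 4.48%, 1.49% and 1.49%. A match is a description of letters only, and reads were counted per gene, so the start in use is not known.

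Among the inward rectifiers known from vessels and contractile cells, Kcnj8 had the highest level. It encodes Kir6.1, the pore of ATP-sensitive channels in smooth muscle and pericytes, and was at 7.31, 10.1, 7.87 and 8.07 FPKM in the mutants and at 9.61, 10.2 and 13.2 FPKM in the controls. The groups overlapped through mutant replicate 2 (log2 fold change -0.36, SE 0.13; limma adjusted p = 0.237). Its partner subunit gene Abcc9 was at 1.79, 5.39, 4.22 and 5.16 FPKM in the mutants and at 4.95, 4.43 and 5.06 FPKM in the controls, low in mutant replicate 1 alone, and the ratio of Kcnj8 to Abcc9 showed no separation (exact permutation p = 0.943). Of 8 smooth muscle and pericyte markers none passed in limma and 6 were below 0, with sums of 146 to 180 FPKM in mutants and 169 to 239 FPKM in controls. In the authors' deposited table Ren1 passed as lower (log2 fold change -1.20, adjusted p = 0.0223) and Rgs5 as higher (0.78, adjusted p = 0.0223), and the others did not pass. The part of these markers in the Kcnj8 values was not tested.

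Kcnj2, the gene of the classical strong rectifier Kir2.1, was the one tested member of the family above 0. It was at 2.04, 2.48, 2.38 and 2.46 FPKM in the mutants and at 2.18, 1.92 and 1.68 FPKM in the controls (log2 fold change 0.19, SE 0.091; limma adjusted p = 0.412). Kcnj5, a subunit of G protein-gated channels, ran from 0.593 to 1.07 FPKM in the mutants and from 0.894 to 1.47 FPKM in the controls, with overlap (log2 fold change -0.24, SE 0.13). The remaining 3 were under the filter. Kcnj11, the Kir6.2 pore of ATP-sensitive channels, averaged 0.294 ± 0.050 FPKM in mutants and 0.374 ± 0.093 FPKM in controls (SD, n = 4 and 3). Kcnj14 and Kcnj4, both strong rectifiers, averaged 0.748 and 0.320 FPKM in mutants and 0.691 and 0.310 FPKM in controls.

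**Figure D4:**
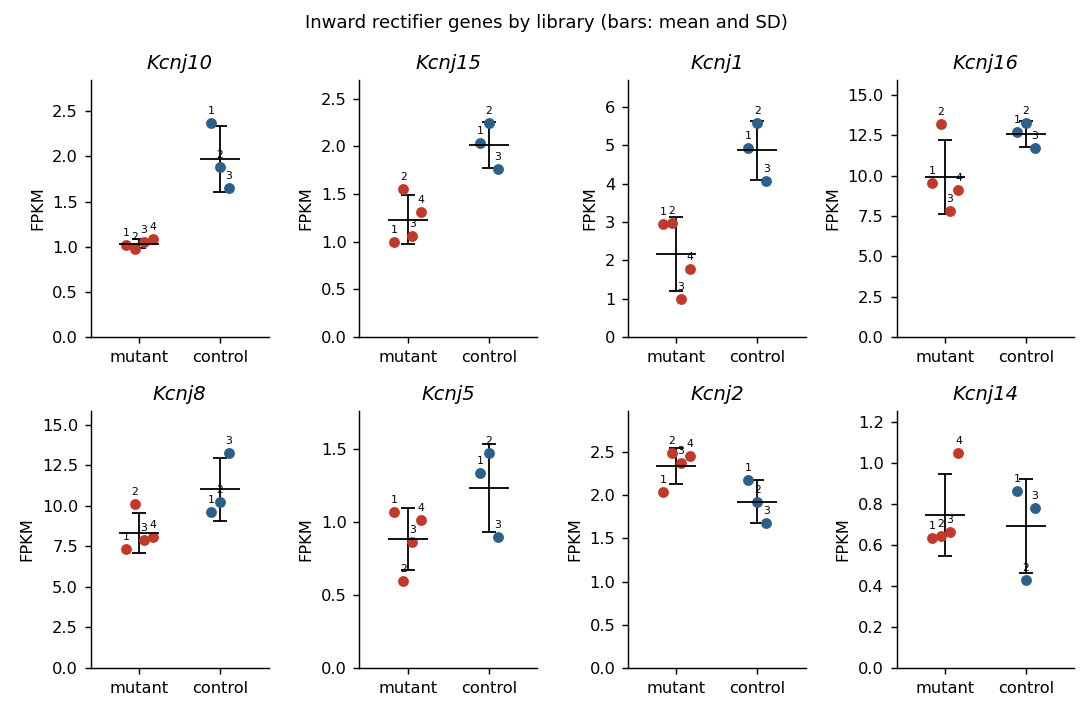
FPKM of 8 inward rectifier genes in each library (points, numbered by replicate) with mean and SD, mutants left of controls; each axis starts at 0. Groups are apart for Kcnj10, Kcnj15 and Kcnj1 and overlap for the other 5.

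The K2P channels, encoded by Kcnk genes, carry background currents that are open at rest. Of 4 tested none changed (1 with an unadjusted p under 0.05), and the summed level over the 6 listed was 23.9 to 25.8 FPKM in the mutants and 23.0 to 23.7 FPKM in the controls. Kcnk1 (TWIK1) had the highest mean over the 7 libraries of all potassium channel genes, at 11.8, 11.4, 12.4 and 12.1 FPKM in the mutants and 10.2, 10.7 and 10.3 FPKM in the controls. Every mutant was above every control by a small margin, and the difference did not pass (log2 fold change 0.18, SE 0.061; limma adjusted p = 0.213). Kcnk5 (TASK2), an alkali-sensitive channel of the proximal tubule, was at 7.86 to 9.13 FPKM in the mutants and 8.59 to 9.74 FPKM in the controls. Its log2 fold change of -0.07 had a 95% interval of -0.24 to 0.10. For Kcnk6 (TWIK2) and Kcnk3 (TASK1), known from vessels, the fold change was 0.10 (SE 0.11) for the one and 0.06 (SE 0.17) for the other on the log2 scale. Kcnk2 (TREK1), a stretch-gated channel, was at 0.760 to 0.916 FPKM in the mutants and 0.808 to 1.02 FPKM in the controls.

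The voltage-gated channels of the Kcna to Kcnd families open on depolarization. Of 6 tested, none passed in limma (2 with an unadjusted p under 0.05), and 5 were above 0, with a median of 0.13. Kcnd2 (ENSMUSG00000060882.6) encodes Kv4.2, a channel of fast transient currents. It was at 1.80, 1.90, 2.22 and 1.82 FPKM in the mutants and at 1.44, 1.40 and 1.18 FPKM in the controls. The groups were apart, with a mutant mean of 145% of the control mean and a difference of 0.33 on the log2 scale (SE 0.087; limma adjusted p = 0.111). In the authors' deposited table the log2 fold change was 0.53 (adjusted p = 0.00675). The other genes of the family were Kcnd1 (Kv4.1), at 0.873 to 1.05 FPKM in mutants and 0.640 to 0.858 FPKM in controls, apart as well, and Kcnd3 (Kv4.3), at 2.34 to 3.21 FPKM in mutants and 1.88 to 2.63 FPKM in controls, with overlap. The ratio of Kcnd2 to Kcnd3 ran from 0.594 to 0.948 in mutants and from 0.549 to 0.626 in controls (exact permutation p = 0.114, 0.190 adjusted over the 5 ratios).

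Kcna5 (Kv1.5), a delayed rectifier of vascular smooth muscle, was at 1.55, 1.61, 2.41 and 2.31 FPKM in the mutants and at 1.36, 1.53 and 1.40 FPKM in the controls. Mutant replicates 3 and 4 were clearly above the controls and replicates 1 and 2 just above them (log2 fold change 0.28, SE 0.12; limma adjusted p = 0.362). Stromal markers stood at 176 to 289 FPKM in sum in the mutants and 125 to 225 FPKM in the controls. All 4 had a fold change above 0 and none passed in limma. In the authors' deposited table Pdgfra and Dcn passed as higher (adjusted p = 0.0111 and 0.0188), and the others did not. The part of the stromal markers in the values of Kcnd2 and Kcna5 was not tested. Kcnc2, the highest member of its family, differed by -0.02 (SE 0.099) on the log2 scale. Kcna6 overlapped (0.03, SE 0.094), and the group means of Kcna2, Kcna3 and Kcnb2 ran from 0.0959 to 0.637 FPKM, with overlap.

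**Figure D5:**
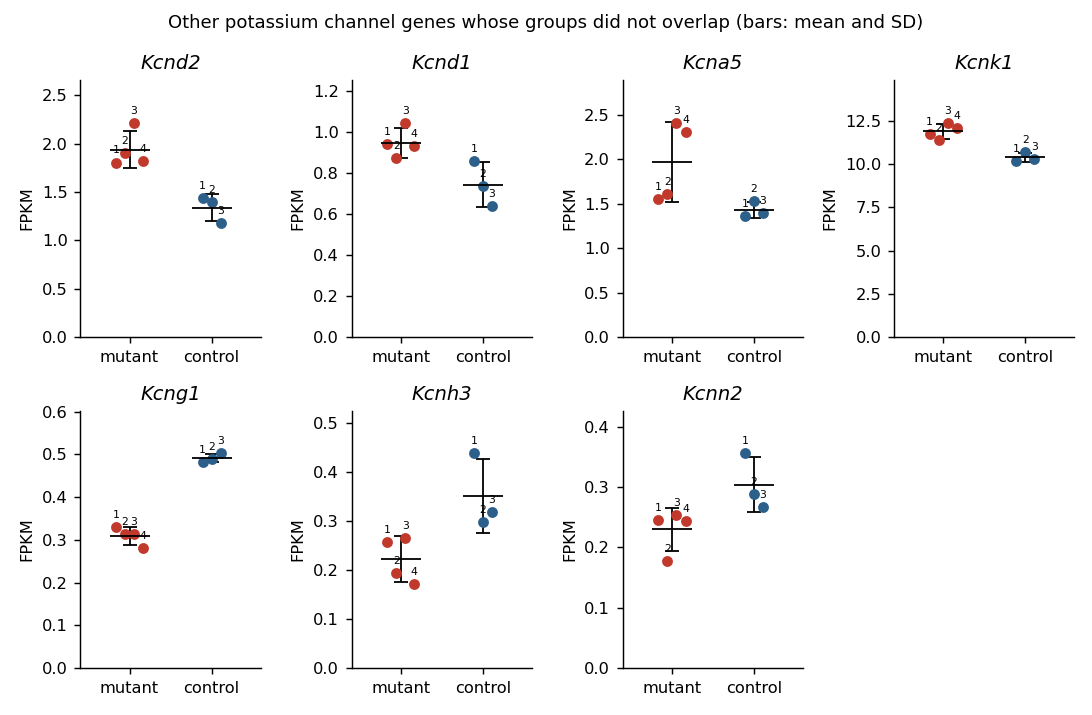
FPKM in each library (points, numbered by replicate) with mean and SD for 7 potassium channel genes outside the inward rectifiers whose groups do not overlap, mutants left of controls. Kcnd2, Kcnd1, Kcna5 and Kcnk1 are higher in mutants and Kcng1, Kcnh3 and Kcnn2 lower, the last 3 all under 0.6 FPKM.

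The EAG family (Kcnh) and the KCNQ family gave no call. Kcnh2, the gene of the cardiac repolarizing channel HERG, averaged 4.42 ± 0.41 FPKM in mutants and 4.66 ± 0.24 FPKM in controls (SD, n = 4 and 3; log2 fold change -0.07, 95% interval -0.25 to 0.12). Kcnh3 was at 0.171 to 0.266 FPKM in the mutants and 0.298 to 0.438 FPKM in the controls, groups apart (limma-voom log2 fold change -0.68, SE 0.25; adjusted p = 0.243). Group means of the remaining Kcnh1, Kcnh5, Kcnh7 and Kcnh8 ran from 0.155 to 0.852 FPKM, and all overlapped. Kcnq1, an apical channel of the proximal tubule when joined by the Kcne1 subunit, was at 1.38 to 1.48 FPKM in the mutants and 1.47 to 1.64 FPKM in the controls (log2 fold change -0.08, SE 0.074; limma adjusted p = 0.742). Kcne1 itself was at 0.279 to 0.315 FPKM in the mutants and 0.235 to 0.410 FPKM in the controls. Group means of Kcnq3 and Kcnq5 ran from 0.0667 to 0.394 FPKM, and both overlapped.

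The silent subunits (Kcnf, Kcng, Kcns and Kcnv) form no channel alone and alter the channels of the Kcnb family. Kcng1 (ENSMUSG00000074575.5) was at 0.329, 0.313, 0.313 and 0.281 FPKM in the mutants and at 0.482, 0.489 and 0.502 FPKM in the controls. The values hardly varied within either group, and the mutant mean was 62.9% of the control mean on 65 to 152 reads a library. It passed in the authors' deposited table (log2 fold change -0.67, adjusted p = 0.0462) and not in limma-voom (-0.67, SE 0.16; adjusted p = 0.0759). Kcns3, the highest of the class, ran from 1.97 to 3.14 FPKM in mutants and from 2.38 to 3.68 FPKM in controls. Kcnf1 and Kcng2 were lower on average in mutants (0.498 and 0.147 FPKM) than in controls (0.742 and 0.266 FPKM) and Kcnv2 higher (0.335 FPKM in mutants, 0.232 FPKM in controls), all with overlap and none past the threshold.

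Channels opened by calcium or sodium gave no call among 3 tested, with 0 at an unadjusted p under 0.05. Of the small and intermediate conductance genes, Kcnn1 was at 1.41 to 2.01 FPKM in the mutants and 1.97 to 2.42 FPKM in the controls, which overlapped narrowly (log2 fold change -0.23, SE 0.10; limma adjusted p = 0.382). Kcnn2 averaged 0.230 ± 0.035 FPKM in mutants and 0.304 ± 0.046 FPKM in controls (SD, n = 4 and 3), with groups apart, and Kcnn3 and Kcnn4 overlapped. All 4 Kcnn genes had a limma-voom fold change below 0, and none passed. Kcnma1, the pore of the large-conductance BK channel that secretes potassium at high flow, was low, at 0.161 to 0.279 FPKM in the mutants and 0.182 to 0.240 FPKM in the controls. Kcnt2, a sodium-activated channel, differed by 0.16 on the log2 scale (SE 0.095), and Kcnt1 was at or under 0.134 FPKM in every library.

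None of the 7 tested auxiliary subunit genes changed, with 0 at an unadjusted p under 0.05 and fold changes from -0.18 to 0.17. Kcne1l, of the single-pass subunits that modify voltage-gated channels, was the highest, at 6.68 ± 1.17 FPKM in mutants and 6.55 ± 0.21 FPKM in controls (SD, n = 4 and 3). Kcne3, which holds KCNQ1 channels open, was at 0.949 FPKM in mutants and 0.932 FPKM in controls on average, and Kcne4 at 1.94 to 2.70 FPKM in mutants and 2.36 to 2.43 FPKM in controls. The BK subunit genes Kcnmb4 and Kcnmb2 differed by -0.03 (SE 0.11) for Kcnmb4 and -0.18 (SE 0.10) for Kcnmb2 on the log2 scale, and the smooth muscle subunit Kcnmb1 averaged 0.233 FPKM in mutants and 0.209 FPKM in controls. Kcnip3, of the calcium-binding partners of Kv4 channels, differed by 0.0092 on the log2 scale (SE 0.0998), which turns below 0 on recovered reads (-0.01 in limma-voom). Kcnab2, of the cytoplasmic beta subunits, stood at -0.04 (SE 0.084) and Kcnab3 at 0.17 (SE 0.090) on the same scale; Kcnab1, Kcnip1 and Kcnip2 were under the filter and overlapped. The non-coding Kcnq1ot1, antisense to Kcnq1, was at 0.0437 to 0.109 FPKM over the 7 libraries, and Kcnmb4os2 at 0.107 to 0.401 FPKM in mutants and 0.396 to 0.466 FPKM in controls. The library kit keeps strand, but whether reads were counted by strand is not given in the sources used here, so reads of a gene and its antisense partner may not be told apart.

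Other genes of potassium handling were taken as a list of 56, of which 52 were listed and 39 tested. Of these 0 rose, 1 fell (Bsnd) and 38 did not pass, that is 2.56% called, against 1.53% of all genes tested, with a median of -0.06 and 24 below 0. Groups were apart for 18 of the 52 (34.6%), 15 below and 3 above, against 14.6% of all listed genes. The authors' deposited table called 13 of the 52, 10 lower and 3 higher, against 5.49% of all genes with a deposited p. Atp1b1, the beta subunit gene of the sodium-potassium ATPase, was at 56.1 to 95.4 FPKM in the mutants and 106 to 133 FPKM in the controls, and the groups did not overlap (log2 fold change -0.62, SE 0.17; limma adjusted p = 0.130). It passed in the deposited DESeq2 test (log2 fold change -0.61, adjusted p = 0.00733). The pump's tubule regulator Fxyd2 averaged 12.9 ± 5.84 FPKM in mutants and 27.1 ± 5.39 FPKM in controls, while Fxyd4, known from the collecting duct, averaged 12.6 ± 2.23 FPKM in mutants and 8.58 ± 0.70 FPKM in controls (SD, n = 4 and 3). Neither passed in limma (adjusted p = 0.266 for Fxyd2 and 0.112 for Fxyd4) or in limma-voom (0.249 and 0.109). The deposited DESeq2 test called Fxyd4 (adjusted p = 0.0125) and not Fxyd2 (0.203). Slc12a3, the distal cotransporter that Kir4.1 activity controls, was at 0.0876 to 0.359 FPKM in the mutants and 0.822 to 1.85 FPKM in the controls and passed in limma-voom without the filter (log2 fold change -2.80, SE 0.47; adjusted p = 0.0300). That test called 5 of the 52, all lower, against 1.79% of all listed genes: Slc12a3, Bsnd, the calcium-sensing receptor gene Casr, the pacemaker channel gene Hcn2 and the proton-potassium pump gene Atp12a. Of these genes, those other than Bsnd, Slc12a1, Atp1b1, Fxyd2, Abcc8, Abcc9, Dpp6, Amigo1 and Wnk1 were named after their values were seen. The regulator genes Wnk1 and Wnk4 overlapped between groups, as did Abcc8, Amigo1 and Dpp6, partner subunits of ATP-sensitive, Kv2 and Kv4 channels. Dpp10, an auxiliary subunit gene also named after its values were seen, was apart, at 0.201 to 0.285 FPKM in mutants and 0.105 to 0.185 FPKM in controls. It passed in the authors' deposited table (log2 fold change 0.86, adjusted p = 0.0186) and not in limma-voom (adjusted p = 0.0780).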

How the data were processed

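RNA of whole kidneys was sequenced in 7 libraries, grouped by sample title. STAR 2.6.0c, HTSeq 0.6.1p2, DESeq2, Trim Galore 0.5.0 and FastQC 0.11.5 are the tools named by the submitters (processing notes), on build GRCm39; gene lengths and counting by strand are not given in the sources used here. The authors deposited, per the file headers, FPKM per library, a DESeq2 log2 fold change with its SE, p-value and adjusted p-value, the Wald statistic (a score) and a mean of normalized counts, a signal over all libraries whose lowest value was 18.5; these columns were copied, not recomputed. Nothing says that libraries came from separate litters, so a p-value covers only the spread among these libraries, which may be technical.

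Genes with at least 1 FPKM in at least 3 libraries (13466; 2701 left out) were compared on log2(FPKM + 1) with limma 3.58.1 under R 4.3.3, using trended, robust empirical Bayes and Benjamini-Hochberg adjustment; an adjusted p under 0.05 was called. Reads were recovered from FPKM, the mean count and a size factor per library; 100% of values lay within 0.05 of a whole number. They entered limma-voom with trimmed-mean scaling. Precision at low FPKM is limited by these reads. The pipeline was tested on simulated counts. The members, gene lists and tests were chosen with earlier results of these data known. Named were members called by limma or by the deposited test, the 10 with the smallest limma p, the highest of each family and 20 known from renal physiology (18 listed), 34 in all, with others added after their values were seen; some genes enter the counts and sums but their own values are not reported here. Other steps ran in Python 3.11.15 (matplotlib 3.10.9, pandas 2.3.3, numpy 2.4.6). Sequences are from RefSeq on GRCm38.p6.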

Additional observations from a re-analysis of the deposited data

Results flagged for a closer look

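In 4 of the 64 groups of 4 mutants examined, 1 library stood far from the other 3 by Dixon's 95% criterion on the gap to the nearest value. Chance alone gives this in about 1 in 20 groups. Kcnd3 was highest in mutant replicate 2 (3.21 FPKM) and Kcnj14 highest in mutant replicate 4 (1.05 FPKM). Kcns3 was lowest in mutant replicate 3 (1.97 FPKM) and Kcnn2 lowest in mutant replicate 2 (0.177 FPKM). None of these genes passed a test.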

How the results depend on the processing

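Counts of calls moved with the settings. Over all genes, limma called 206; a pseudocount of 0.1 gave 109, a minimum of 5 FPKM 60, the replicate number as a block 2, array weights 1302, the deposited DESeq2 test 886, and leaving out 1 library 11 to 486. Of the 30 tested potassium channel genes limma called 1; array weights gave 4, the globin covariate 2, the replicate block 0 (8 had an unadjusted p under 0.05 in the unblocked limma fit), and leaving out 1 library 0 to 1. The minimum of 5 FPKM left 5 members, without Kcnj10, and limma called 0 of them. Of all 64, limma-voom called 2, limma without a filter 1 and the deposited test 5; leaving out 1 library, added after seeing the data, gave 0 to 1. Of 39 tested partner genes limma called 1; a pseudocount of 0.1 and the block gave 0 (13 at an unadjusted p under 0.05 in the unblocked fit at a pseudocount of 1), array weights 10, the globin covariate 6, and leaving out 1 library 0 to 5. The minimum of 5 FPKM left 23 partner genes, without Bsnd, and limma called 0 of them. Of all 52, limma and limma-voom without a filter called 5 each and the deposited test 13. Over all genes, limma without a filter called 255 of 16167. The count over all genes with the globin covariate is not given here, so the 2 and 6 called with it have no background to be read against. The cause of these shifts was not tested.

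Of 34 named members, 22 kept the sign of their fold change under every setting and 12 did not, none of these past the threshold. Leaving out 1 library gave -0.073 to 0.0035 for Kcnab2, -0.073 to 0.058 for Kcnc2, -0.22 to 0.16 for Kcne1, -0.081 to 0.071 for Kcne1l, -0.034 to 0.10 for Kcne3, -0.086 to 0.072 for Kcnip3, -0.12 to 0.25 for Kcnk3, -0.0041 to 0.21 for Kcnk6, -0.089 to 0.18 for Kcnma1 (with -0.088 and -0.078 between), -0.0092 to 0.24 for Kcnmb1, -0.10 to 0.026 for Kcnmb4 and -0.24 to 0.0018 for Kcns3. Quantile normalization gave 0.0023 for Kcnab2, 0.0091 for Kcnc2 and 0.020 for Kcnmb4. Array weights gave 0.020 for Kcnab2, 0.062 for Kcnc2, -0.073 for Kcnip3, -0.070 for Kcnk3 and -0.014 for Kcnk6. Limma-voom gave -0.010 for Kcnip3 with the filter and -0.011 without.

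Same-numbered mutants and controls had correlations of deviations of -0.16, 0.03 and 0.10, and the other pairs ran from -0.25 to 0.14. With so few libraries in a group, these values cannot show whether a replicate number marks a shared litter or batch, and the labels do not say. Reads per member went down to 10 in a library, and counting error is largest for such members.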
